A study of Homo sapiens with 8 samples.

Results

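Cells labelled 143B, a human osteosarcoma line, were exposed to cisplatin for 48 h and compared with vehicle-treated cells of the same kind by poly(A) RNA sequencing. The comparison used 4 of the 8 libraries of the series, those of the cells that stably carry a control shRNA (shControl): 2 libraries treated with cisplatin and 2 treated with PBS as vehicle, all labelled as wild type and as batch 1. The other 4 libraries came from cells that carry an shRNA against ZDHHC8 (shZDHHC8), a palmitoyltransferase, with 2 libraries treated with cisplatin and 2 with vehicle. The labels give no cisplatin dose, and whether the stable cells are 1 clone or a pool is not given in the sources used here. Every gene of the deposited table was taken, 21123 in all, and the 13495 genes that reached 1 FPKM (fragment counts scaled to transcript length and library size) in 2 or more libraries of all 8 entered the tests.

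Cisplatin is a platinum compound that binds purine bases of DNA. It links neighbouring bases of the same strand and, less often, bases of opposite strands. Such lesions stop replication forks and elongating RNA polymerase II, activate the checkpoint kinases and p53, and are removed by nucleotide excision repair, the Fanconi anaemia pathway and homologous recombination. Platinum drugs are also known to disturb the nucleolus, where ribosomes are assembled, and are part of standard chemotherapy of osteosarcoma.

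The markers of the label were mixed. RUNX2, the master regulator of osteoblasts, averaged 9.20 FPKM with cisplatin and 12.9 FPKM with vehicle, and the bone matrix gene SPP1 averaged 59.96 and 142 FPKM in those groups. The osteoblast genes BGLAP and IBSP stayed below 0.5 FPKM in both groups. The matrix gene COL1A1 averaged 1.73 FPKM with cisplatin and 5.08 FPKM with vehicle, SPARC 3.96 and 4.74, and COL1A2 0.090 and 0.826. Of 10 osteoblast and bone matrix markers 7 were among the listed genes, and 4 averaged at least 1 FPKM over the 4 libraries. KRT8, an epithelial keratin, averaged 552 FPKM with cisplatin and 649 FPKM with vehicle, beside 1200 and 1761 FPKM of the mesenchymal filament gene VIM. The receptor gene ERBB2 ranked 46th of 21123 genes with cisplatin and 24th with vehicle. Of the 5 blood-cell markers in the table none averaged 1 FPKM. Pearson's r of log2 values over the tested genes was 0.995 within each shControl group and 0.954 to 0.955 between them, the 8 column totals lay between 361060 and 391016 FPKM, and the read depth is unknown.

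Expression of most tested genes differed between the groups, with 8388 genes (62.2%) called. Between cisplatin and vehicle, 4967 genes (36.8%) were called higher and 3421 (25.4%) lower, by limma on log2(FPKM + 1) with Benjamini-Hochberg adjustment and a threshold of 0.05 on the adjusted p. These shares are the background against which every count of a gene group below should be read. The changes were mostly small: the median absolute log2 change was 0.309 against a median standard error of 0.0792, and only 465 genes (3.45%) were called higher and 270 (2.0%) lower with a log2 change of at least 1 either way. The split depended on scaling, since with median-of-ratios scaling in place of the deposited scale 4048 genes were called higher and 4366 lower of 13483, and the median change over all tested genes was -0.0195 in place of 0.0696. Log2 changes below are differences of mean log2(FPKM + 1), cisplatin minus vehicle, with their standard error, and on this scale the change of weakly expressed genes comes out too small. The 2 values given for a group are its 2 libraries.

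**Figure D1:**
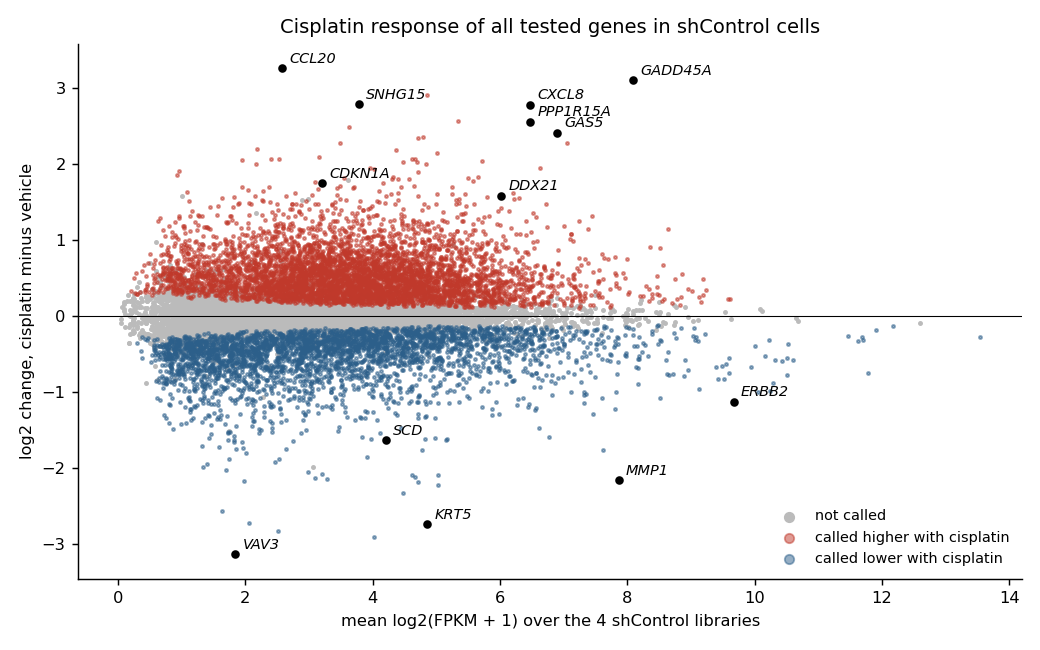
Log2 change (cisplatin minus vehicle, vertical) against mean log2(FPKM + 1) over the 4 shControl libraries (horizontal) for the 13495 tested genes, 1 point per gene. Called genes lie on both sides of the line over most of the range, and the labelled genes range from CCL20 at 3.26 to VAV3 at -3.13.

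CCL20, GADD45A and ANKRD1 had the largest rises by the naming rule. GADD45A, a growth-arrest and DNA-damage gene at chr1:67685201-67688334 (hg38, plus strand), had 806 and 789 FPKM in the cisplatin libraries, against 91.3 and 92.6 FPKM in the vehicle libraries. This was an 8.67-fold difference in mean FPKM and a log2 change of 3.10 ± 0.040 (adjusted p = 1.68e-09). The chemokine gene CCL20, whose product attracts CCR6-bearing lymphocytes, had 16.9 and 17.98 FPKM with cisplatin and 1.17 and 0.699 FPKM with vehicle, a log2 change of 3.26 ± 0.12 (adjusted p = 2.28e-07). ANKRD1, a target of the YAP and TEAD transcription factors, had 82.5 and 73.9 FPKM with cisplatin and 10.4 and 8.73 FPKM with vehicle (log2 change 2.91 ± 0.088). In none of these genes did the cisplatin and vehicle libraries overlap, which the naming rule required. The other genes among the 15 largest rises were CXCL8, IL6, PPP1R15A, AEN, TNFAIP3, ATF3, ESM1, UPP1, HBEGF, IL32, IL1B and TRIB3, with log2 changes between 2.04 and 2.78.

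Among the 15 largest falls, VAV3, a guanine nucleotide exchange factor for small GTPases, stood at 0.228 and 0.189 FPKM in the cisplatin libraries and at 9.97 and 9.25 FPKM in the vehicle libraries (log2 change -3.13 ± 0.12, adjusted p = 2.78e-07). The basal keratin gene KRT5 had 10.4 and 10.0 FPKM with cisplatin and 74.0 and 73.0 FPKM with vehicle (log2 change -2.74 ± 0.056). MMP1, the interstitial collagenase, had 115 and 105 FPKM with cisplatin and 498 and 485 FPKM with vehicle (log2 change -2.15 ± 0.057). Further falls were SAMD11, SORCS2, APOL1, CYP1B1, MXRA5, IDO1, UGT1A6, IMPA2, FGFBP1, ZSCAN31 and ZBED6CL, between -2.05 and -2.82. Strandedness was not given, so a gene lying across another gene may carry its reads; of these 30 genes the values are uncertain for IL6, TNFAIP3, SAMD11, CYP1B1, MMP1, IDO1, UGT1A6, IMPA2, ZSCAN31 and ZBED6CL, and UGT1A6 shares its span with other UGT1A genes.

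**Figure D2:**
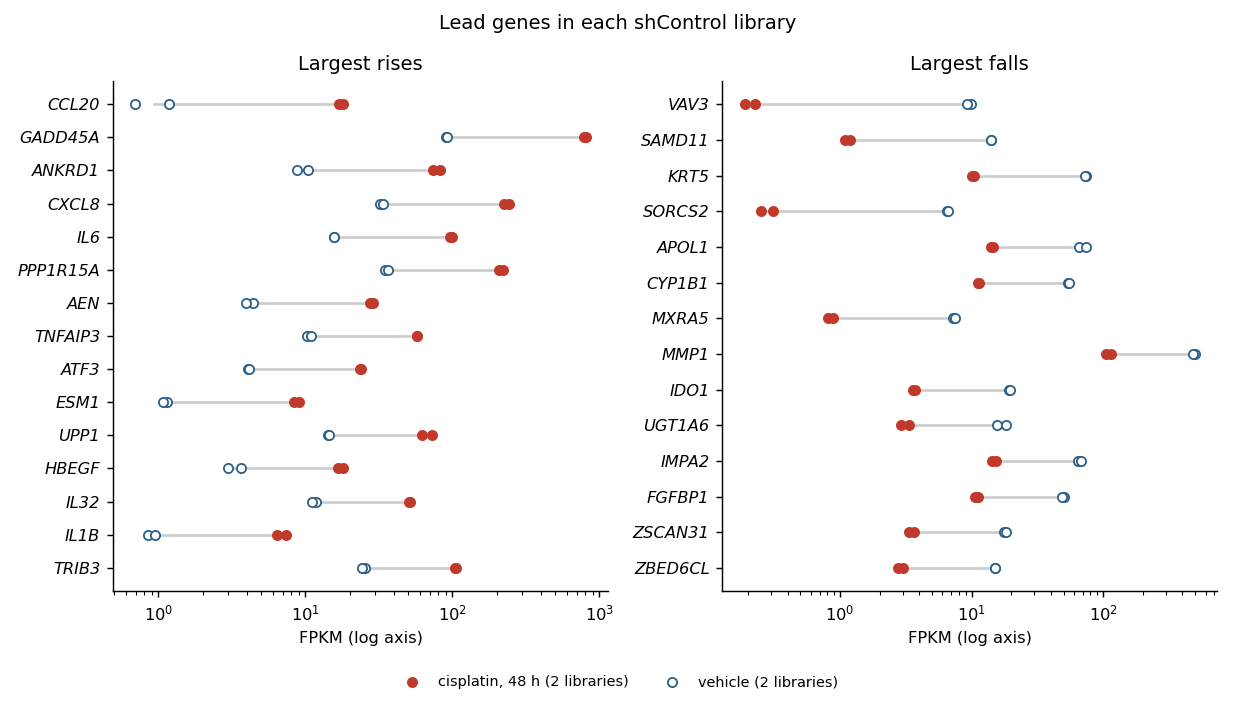
FPKM on a log axis in each shControl library for the 15 largest rises (left) and 14 of the 15 largest falls (right); filled points are the 2 cisplatin libraries and open points the 2 vehicle libraries. Replicates lie close together beside the distance between the groups, as for GADD45A (806 and 789 against 91.3 and 92.6 FPKM).

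Most tested genes of secreted inflammatory signals were called higher. Of 17 tested chemokine and cytokine genes, 13 were called higher and 2 lower, with a median log2 change of 1.60 beside 0.07 over all tested genes. CXCL8, which encodes the neutrophil attractant interleukin-8, had 242 and 223 FPKM with cisplatin and 32.1 and 33.9 FPKM with vehicle (log2 change 2.78 ± 0.071, adjusted p = 6.02e-08). IL6, a cytokine that signals through STAT3, had 98.9 and 96.2 FPKM with cisplatin and 15.7 and 15.6 FPKM with vehicle (2.57 ± 0.080). Members picked after their values were seen were CXCL2 at a log2 change of 1.70, IL11 at 2.00 and IL1A at 1.60. The 2 that fell were TNFSF10, the gene of the death ligand TRAIL, at -1.52, and the mucosal chemokine gene CCL28 at -0.68. CXCL1, CXCL2 and CXCL3 are near-identical neighbours, so their values may share reads.

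The regulators of NF-kB, the transcription factor that drives many of these cytokine genes, moved the same way in most cases. Of 25 tested subunits and feedback inhibitors, 21 were called higher and 1 lower (median 0.58). TNFAIP3, whose product A20 removes ubiquitin chains from NF-kB signalling complexes, had 58.0 and 57.5 FPKM with cisplatin and 10.2 and 10.99 FPKM with vehicle (2.34 ± 0.061, adjusted p = 6.02e-08). The non-canonical subunit genes RELB and NFKB2 rose by 1.83 and 1.61 on the log2 scale. The exception was NFKBIA, the gene of the inhibitor IkB-alpha and itself a target of NF-kB, with 35.5 and 33.8 FPKM under cisplatin and 42.0 and 47.2 FPKM under vehicle (-0.35 ± 0.087, adjusted p = 0.00655). Without vehicle replicate 2 NFKBIA was no longer called (adjusted p = 0.0537).

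The promoters of 5 of these genes are shown because their kappaB-like matches lie close to the start site. Each line is the 120 bases before a RefSeq start site on GRCh38.p14, in the direction of the gene, with matches to GGNNTTTCC on either strand in capitals: CCL20 at chr2:227813722-227813841 (plus strand), CXCL8 at chr4:73740449-73740568 (plus), IL6 at chr7:22727080-22727199 (plus), CXCL2 at chr4:74099196-74099315 (minus) and TNFAIP3 at chr6:137867139-137867258 (plus).
CCL20: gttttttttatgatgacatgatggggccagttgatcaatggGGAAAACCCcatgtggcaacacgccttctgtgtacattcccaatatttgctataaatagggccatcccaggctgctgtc
CXCL8: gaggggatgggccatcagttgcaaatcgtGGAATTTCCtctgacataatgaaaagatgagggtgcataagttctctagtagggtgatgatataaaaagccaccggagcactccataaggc
IL6: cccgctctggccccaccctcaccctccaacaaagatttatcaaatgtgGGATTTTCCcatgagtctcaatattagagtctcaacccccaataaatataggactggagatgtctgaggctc
CXCL2: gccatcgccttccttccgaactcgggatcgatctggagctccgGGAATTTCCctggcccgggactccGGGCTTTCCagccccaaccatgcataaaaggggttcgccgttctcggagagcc
TNFAIP3: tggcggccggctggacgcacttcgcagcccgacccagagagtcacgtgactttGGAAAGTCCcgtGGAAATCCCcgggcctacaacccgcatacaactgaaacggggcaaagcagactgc

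CXCL2 and TNFAIP3 hold 2 matches each in this window and the other 3 genes hold 1. In the 250 bases before any listed start site, the motif was present in 7 of 14 chemokine and cytokine genes and in 14 of 22 NF-kB regulators with a RefSeq promoter, beside 801 of 9962 tested genes (8.04%). Among all genes called higher the share was 8.07%, and among those called lower 8.42%. For the 100 largest rises it was 13 of the 82 with a promoter (15.9%), a set that may include members of the 2 lists. Both lists came from general knowledge and hold known targets of NF-kB, so their higher shares are no independent support. NFKBIA, which was called lower, also holds a match. A match is a stretch of letters, and no binding was measured.

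Most immediate-early and MAPK feedback genes were called higher, but the classic members FOS and EGR1 were called lower. Of 25 tested immediate-early genes, which growth factors and stress switch on without new protein synthesis, 17 were called higher and 3 lower (median 0.67). ATF3, a stress-induced transcriptional repressor, had 23.9 and 23.6 FPKM with cisplatin and 4.06 and 4.14 FPKM with vehicle (2.28 ± 0.053), and the small MAF genes MAFF and MAFK rose by 1.80 and 1.40. FOS had 19.7 and 28.9 FPKM with cisplatin and 48.7 and 59.2 FPKM with vehicle (-1.14 ± 0.16, adjusted p = 0.00032), JUNB fell by 0.93 and EGR1 by 0.33. Of 16 genes that feed back on MAP kinases, 12 were called higher and 1 lower (median 0.71), with the phosphatase genes DUSP5, DUSP4 and DUSP1 at 2.03, 1.93 and 1.56 and the inhibitor gene SPRY1 at -0.68.

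Within the EGF family, 4 ligand genes were called higher and both tested receptor genes lower. HBEGF, a heparin-binding ligand of EGFR and ERBB4, had 18.1 and 16.8 FPKM with cisplatin and 3.00 and 3.63 FPKM with vehicle (2.10 ± 0.091), and AREG, another ligand of EGFR, changed by 1.44, followed by NRG1 at 0.69 and TGFA at 0.62. ERRFI1, which encodes an inhibitor of EGFR signalling, changed by 1.11. ERBB2, the gene of the HER2 receptor, had 556 and 549 FPKM with cisplatin and 1193 and 1217 FPKM with vehicle (-1.13 ± 0.049, adjusted p = 4.80e-07), and EGFR fell by 0.25. In all, 5 of 10 tested members were called higher and 2 lower.

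Most targets of the integrated stress response and most tRNA synthetases were called higher. When eIF2-alpha is phosphorylated, ATF4 is translated and switches on genes of amino acid supply and, later, of recovery. Of 35 tested targets, 23 were called higher and 5 lower (median 0.38). PPP1R15A, the gene of GADD34, which restores translation by reversing that phosphorylation, had 209 and 222 FPKM with cisplatin and 34.8 and 36.6 FPKM with vehicle (2.56 ± 0.051, adjusted p = 2.40e-08). TRIB3, a pseudokinase gene under ATF4 control, had 106 and 104 FPKM with cisplatin and 25.3 and 24.3 FPKM with vehicle (2.04 ± 0.051). The members that fell furthest were DDIT4, an inhibitor of mTORC1, at -0.98, CTH, of cysteine synthesis, at -0.73, and the cystine importer gene SLC7A11 at -0.48. Of 23 genes of tRNA synthetases and their scaffold proteins, 19 were called higher and 0 lower (median 0.53), led by FARSA at 1.08, AIMP2 at 0.91 and VARS1 at 0.90; of the 4 not called, HARS1, EEF1E1 and EPRS1 lay between -0.06 and 0.10, and EPRS1 was called lower with median-of-ratios scaling.

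CEBPG, the gene of a dimer partner of ATF4, is shown for its match to TGATGNAA, the composite site known for ATF4 and C/EBP; it was picked after its values were seen. It had 24.7 and 25.04 FPKM with cisplatin and 12.9 and 12.4 FPKM with vehicle (log2 change 0.92, adjusted p = 1.44e-06). The stretch is the 120 bases before its RefSeq start site at chr19:33373993-33374112 (GRCh38.p14, plus strand), with the match in capitals.
CEBPG: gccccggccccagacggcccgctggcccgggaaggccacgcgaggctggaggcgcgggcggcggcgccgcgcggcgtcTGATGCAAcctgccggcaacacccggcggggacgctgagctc
The motif was found on either strand in the 250 bases before a start site in 6 of 28 stress response targets and 3 of 19 tRNA synthetase genes. Over all tested genes it was 222 of 9962 (2.23%), and among genes called higher 2.21%. The list of targets came from general knowledge of ATF4, so its higher share is no independent support.

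Nearly all tested genes that build ribosomes were called higher. Of 39 tested genes of ribosome biogenesis and RNA polymerase I, 35 (89.7%) were called higher and 2 lower, with a median of 0.80 and quartiles of 0.46 and 1.12. RRN3, the gene of the factor that recruits RNA polymerase I to ribosomal DNA, had 45.4 and 43.7 FPKM with cisplatin and 14.01 and 14.3 FPKM with vehicle (1.59 ± 0.067, adjusted p = 4.35e-07). DDX21, a nucleolar RNA helicase gene, had 115 and 107 FPKM with cisplatin and 35.8 and 37.0 FPKM with vehicle (1.59 ± 0.057), and GNL3, which encodes nucleostemin, changed by 1.30. UBTF, the gene of the architectural factor of ribosomal DNA, went the other way, with 33.7 and 34.3 FPKM under cisplatin and 52.9 and 51.9 FPKM under vehicle (-0.61 ± 0.044). The second fall, NPM1 at -0.11 (adjusted p = 0.0404), lost its call under 8 of 15 alternatives. The proteins of the ribosome itself moved little: of 79 tested genes 41 were called higher and 4 lower with a median of 0.20, and 23 and 10 with median-of-ratios scaling. Ribosomal protein genes have many near-identical pseudogenes, so their values are uncertain.

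Many long non-coding transcripts that carry small nucleolar RNAs in their introns were also higher. Such host transcripts are short-lived by nonsense-mediated decay, and the snoRNAs they release guide the modification of ribosomal RNA. In the list of 24 tested host genes and other long non-coding RNAs, 16 were called higher and 4 lower (median 1.21). SNHG15, at chr7:44983023-44986961 (hg38, minus strand), had 38.2 and 32.4 FPKM with cisplatin and 3.81 and 4.71 FPKM with vehicle (2.79 ± 0.10, adjusted p = 2.27e-07). GAS5, a growth-arrest transcript that hosts many snoRNAs, had 269 and 281 FPKM with cisplatin and 51.1 and 50.4 FPKM with vehicle (2.41 ± 0.046). SNHG17 had 63.1 and 60.1 FPKM with cisplatin and 11.6 and 10.9 FPKM with vehicle (2.36 ± 0.059). MIR22HG, DANCR and MIR31HG fell by 0.67, 0.46 and 0.46.

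All long non-coding genes were then split by annotation, a split made after the values were seen. Of 34 tested long non-coding genes that contain a same-strand snoRNA or scaRNA gene of GENCODE 29, 21 were called higher and 4 lower (median 0.73). Of the 1120 without one in that annotation, 231 were called higher and 247 lower (median 0.00). GENCODE 29 as used here is incomplete for such genes: GAS5 fell among those without, although the RefSeq gene table places 11 snoRNA genes in its span. With snoRNA genes of either source, an alternative added after the data were seen and without regard to strand for RefSeq, 26 of 46 long non-coding genes were called higher and 5 lower (median 0.49), beside 226 and 246 of 1108 without (median 0.00). By GENCODE 29, of the protein-coding genes that hold a snoRNA gene 94 of 223 were called higher and 45 lower (median 0.13), beside 4478 and 3040 of 11646 without (median 0.07); by either source the medians were 0.05 and 0.08. The replicates of SNHG8 lay further apart, with 42.1 and 28.4 FPKM under cisplatin and 8.64 and 14.9 FPKM under vehicle (1.52 ± 0.25).

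The p53 targets did not move as a group. Of 36 tested targets, 18 were called higher and 9 lower (median 0.20), and 13 and 11 with median-of-ratios scaling. AEN, an apoptosis-linked nuclease gene, had 27.7 and 28.8 FPKM with cisplatin and 4.41 and 3.98 FPKM with vehicle (2.49 ± 0.062). CDKN1A, the gene of the CDK inhibitor p21, had 16.2 and 15.6 FPKM with cisplatin and 4.03 and 4.06 FPKM with vehicle (1.74 ± 0.063). Other canonical targets fell: CCNG1 by 0.91, DDB2 by 0.55 and TRIM22 by 1.14 on the log2 scale. MDM2, the ubiquitin ligase gene that p53 activates to limit itself, had 3.90 and 3.53 FPKM with cisplatin and 3.98 and 4.75 FPKM with vehicle (log2 change -0.18, adjusted p = 0.117) and was picked after its values were seen; with median-of-ratios scaling it was called lower at -0.27.

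Among genes of the start of the cell cycle and of DNA replication more were called higher than lower, and among genes of mitosis more were called lower. Of 24 tested G1 cyclins, CDKs and inhibitors, 14 were called higher and 4 lower (median 0.41), with the repressor gene E2F7 at 1.58, the phosphatase gene CDC25A at 1.39 and the inhibitor gene CDKN2C at -1.34. Of 46 replication genes, 31 were called higher and 5 lower (median 0.37). CDC6, which loads the replicative helicase, had 54.9 and 50.4 FPKM with cisplatin and 21.2 and 21.9 FPKM with vehicle (1.25 ± 0.059), and the origin recognition genes ORC6 and ORC1 changed by 1.14 and 1.04. MCM6, a subunit of that helicase, had 11.3 and 11.01 FPKM with cisplatin and 23.9 and 24.4 FPKM with vehicle (-1.05 ± 0.065).

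Of 52 mitosis and kinetochore genes, 9 were called higher and 27 lower (median -0.20). KIF20A, a kinesin gene needed for cytokinesis, had 12.3 and 11.8 FPKM with cisplatin and 35.0 and 35.3 FPKM with vehicle (-1.47 ± 0.060). PLK1, the gene of a mitotic kinase, had 26.3 and 27.3 FPKM with cisplatin and 58.9 and 60.3 FPKM with vehicle (-1.13 ± 0.050). KIF2C at 0.73, CENPU at 0.63 and CENPM at 0.57 rose, so the list was not uniform. In bulk RNA, fewer cells in a phase and less RNA per cell cannot be told apart. Histone genes, measured here through their polyadenylated transcripts only, gave 2 calls higher and 9 lower among 26 tested, with H1-2 at -1.29 and H1-10 at -0.88.

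Most tested genes that repair DNA crosslinks were called higher. Of 41 tested crosslink repair and homologous recombination genes, 30 (73.2%) were called higher and 5 lower, with a median of 0.38. XRCC3, a recombination gene, had 24.98 and 30.3 FPKM with cisplatin and 9.18 and 8.71 FPKM with vehicle (1.52 ± 0.086). BRCA2, which loads the recombinase on DNA, had 6.26 and 6.67 FPKM with cisplatin and 2.71 and 2.72 FPKM with vehicle (1.01 ± 0.070), and SFR1 changed by 1.04. RAD51B, FANCL and FANCF fell by 0.62, 0.54 and 0.35; FANCF was not called without cisplatin replicate 1 (adjusted p = 0.0735).

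For nucleotide excision and transcription-coupled repair, 15 of 28 genes were called higher and 3 lower (median 0.18), with RPA2 at 0.90 and RAD23B at -0.68. Translesion polymerases and their regulators gave 5 calls higher and 2 lower among 14 (median 0.17); REV3L, the catalytic subunit gene of polymerase zeta, changed by 0.64, and POLH, the gene of the polymerase that bypasses platinum adducts, fell by 0.47. Checkpoint genes gave 11 higher and 5 lower of 23 (median 0.17). PKMYT1, an inhibitory CDK1 kinase gene, changed by 1.28 and ATR by 0.78, while H2AX had 102 and 104 FPKM with cisplatin and 172 and 171 FPKM with vehicle (-0.73 ± 0.042). The difference between these repair lists was not tested, and their shares stand beside 36.8% higher over all tested genes.

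The BCL2 family gave 11 calls higher and 3 lower among 19 genes (median 0.21). The pro-apoptotic BH3-only genes HRK at 0.98, BIK at 0.91 and PMAIP1, which encodes NOXA, at 0.87 rose furthest, and BMF, another BH3-only gene, had 0.631 and 0.769 FPKM with cisplatin and 2.66 and 2.61 FPKM with vehicle (-1.10 ± 0.080). The 2 BIK libraries under cisplatin stood apart at 3.94 and 1.76 FPKM. BNIP3L and BNIP3, of mitophagy, fell by 0.73 and 0.53.

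Most tested genes of sterol and fatty acid synthesis were called lower; the pathway is driven by the SREBP transcription factors. Of 34 tested genes, 28 (82.4%) were called lower and 1 higher, with a median of -0.72 and 8 members at -1 or below. SCD, the stearoyl-CoA desaturase gene, had 9.43 and 9.48 FPKM with cisplatin and 30.8 and 32.1 FPKM with vehicle (-1.63 ± 0.074, adjusted p = 5.37e-07). FADS2, a fatty acid desaturase gene, had 8.68 and 9.61 FPKM with cisplatin and 28.4 and 28.5 FPKM with vehicle (-1.54 ± 0.089). INSIG1, which retains the SREBP escort protein in the endoplasmic reticulum and is itself an SREBP target, had 7.17 and 7.25 FPKM with cisplatin and 19.4 and 20.8 FPKM with vehicle (-1.36 ± 0.059). EBP, a sterol isomerase gene, was the single rise at 0.40. Of the pathway's regulators and early steps, picked after their values were seen, SREBF1 fell by 1.06 and HMGCS1 by 1.13.

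Most antioxidant and glycolysis genes were called lower. Of 37 tested NRF2 targets and antioxidant genes, 28 were called lower and 3 higher (median -0.39). ALDH3A1, an aldehyde dehydrogenase gene, had 0.222 and 0.322 FPKM with cisplatin and 3.86 and 4.22 FPKM with vehicle (-1.99 ± 0.093). The aldo-keto reductase genes AKR1C3 and AKR1C1 fell by 1.63 and 1.51, though these paralogs are near-identical and may share reads. OSGIN1 at 1.17, SRXN1 at 0.31 and TXNRD1 at 0.30 rose.

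Of 35 glycolysis and hypoxia genes, 21 were called lower and 5 higher (median -0.31). LDHA, the lactate dehydrogenase gene, had 794 and 710 FPKM with cisplatin and 1455 and 1535 FPKM with vehicle (-0.99 ± 0.071), PKM fell by 0.88 and CA12 by 1.10. The 2 secreted factors of that list went up, ADM, the adrenomedullin gene, at 1.72 and ANGPTL4 at 1.70. Of 13 mitochondrially encoded transcripts 9 were called lower and 0 higher (median -0.27), from MT-ND5 at -0.65 to MT-ND2 at -0.02.

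Genes of the matrix, of adhesion and of the epithelial cytoskeleton were called lower more often than higher. Of 36 extracellular matrix and integrin genes, 24 were called lower and 6 higher (median -0.37). The proteoglycan gene VCAN had 39.3 and 39.8 FPKM with cisplatin and 95.7 and 101 FPKM with vehicle (-1.29 ± 0.071), and the integrin genes ITGB6 and ITGB8 fell by 1.45 and 1.26. LAMB3, a chain of laminin-332, rose instead, with 142 and 148 FPKM under cisplatin and 54.9 and 57.5 FPKM under vehicle (1.35 ± 0.045), as did COL17A1 at 1.12 and TNC at 0.66. Matrix proteases and their inhibitors were divided, with 8 of 18 called higher and 9 lower: MMP1 and MMP10 fell by 2.15 and 1.88, and the plasminogen activator gene PLAT changed by 1.70.

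Of 25 keratin and junction genes, 12 were called lower and 8 higher (median -0.23). KRT5 and KRT6A fell by 2.74 and 1.88 and KRT19 by 1.17, while KRT80 had 193 and 194 FPKM with cisplatin and 85.0 and 83.9 FPKM with vehicle (1.19 ± 0.040). CLDN1, a tight-junction gene, had 132 and 130 FPKM with cisplatin and 60.3 and 60.4 FPKM with vehicle (1.10 ± 0.047). The 11 epithelial markers, which include KRT5, KRT6A and KRT19 themselves, summed to 858 to 868 FPKM with cisplatin and 1052 to 1062 FPKM with vehicle, mostly through KRT8. Of these markers KRT18, KRT17 and CLDN4 were called higher, by 0.28, 0.25 and 0.27, and KRT8, KRT14 and EPCAM lower. With median-of-ratios scaling KRT17 and CLDN4 were no longer called, at 0.14 and 0.19. CDH1 and TP63 stayed below 0.5 FPKM in both groups. The 6 mesenchymal markers summed to 1244 to 1257 FPKM with cisplatin and 1774 to 1828 FPKM with vehicle, nearly all of it VIM, which was called lower at -0.55. ZEB1 and CDH2 were called higher at 0.52 and 0.34, and TWIST1 was not called. The part of cell composition in these results was not tested.

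Interferon, chaperone and protein-folding genes were lower in several cases. Of 36 interferon-stimulated genes, 19 were called lower and 3 higher (median -0.28), with IDO1, a tryptophan-degrading enzyme gene, at -2.13, BST2 at -0.91 and IFITM3 at -0.90, and the regulators IRF7 and IRF1 at 0.72 and 0.58. Antigen presentation by MHC class I gave 4 calls higher and 6 lower among 18; HLA-E and HLA-B changed by 0.66 and 0.50, ERAP2 and TAPBP by -0.85 and -0.55, and HLA genes are paralogs that may share reads. Of 33 heat shock genes 17 were called lower and 9 higher (median -0.19). HSPB1, a small heat shock protein gene, had 142 and 148 FPKM with cisplatin and 359 and 321 FPKM with vehicle (-1.22 ± 0.066), the near-identical HSPA1A and HSPA1B fell by 1.60 and 1.34, and HSPA9, the mitochondrial HSP70 gene, changed by 1.02. Among endoplasmic reticulum chaperones 15 of 29 were called lower and 4 higher (median -0.19), with PDIA4 at -0.83, CALR at -0.77 and XBP1 at 0.87. Lysosome and autophagy genes gave 8 calls higher and 14 lower of 34, with the autophagy receptor gene SQSTM1 at 0.78 and the protease gene CTSD at -1.0.

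Genes of platinum handling changed by less than 1 on the log2 scale. Of 18 tested metallothionein, copper transporter and drug transport genes, 6 were called higher and 8 lower (median -0.09). MT1X, a metal-binding metallothionein gene, had 34.5 and 29.9 FPKM with cisplatin and 21.6 and 22.2 FPKM with vehicle (0.53 ± 0.098). LRRC8D, a subunit of the volume-regulated anion channel known as a route of cisplatin entry, had 10.2 and 9.25 FPKM with cisplatin and 16.1 and 15.1 FPKM with vehicle (-0.63 ± 0.069), while the subunit genes LRRC8E and LRRC8A changed by 0.60 and 0.54. The copper exporter gene ATP7B fell by 0.49 and the drug exporter gene ABCC3 by 0.53.

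The series was built around ZDHHC8 and beta-catenin. ZDHHC8 had 32.3 and 32.8 FPKM with cisplatin and 23.7 and 23.1 FPKM with vehicle (0.46 ± 0.13, adjusted p = 0.0136). That call was lost without vehicle replicate 2 (adjusted p = 0.0578) and without cisplatin replicate 2 (adjusted p = 0.0517). In shZDHHC8 cells ZDHHC8 had 23.5 and 22.3 FPKM with cisplatin and 14.3 and 9.81 FPKM with vehicle (log2 change 0.89, adjusted p = 0.000717). The shZDHHC8 cells under cisplatin, at a mean of 22.9 FPKM, thus stood close to the 23.4 FPKM of the vehicle-treated shControl cells, and the interaction of -0.43 was not called (adjusted p = 0.111). CTNNB1, the beta-catenin gene, had 41.4 and 41.1 FPKM with cisplatin and 57.8 and 57.9 FPKM with vehicle (-0.48 ± 0.048, adjusted p = 3.94e-05). WNT pathway genes and targets were divided, with 12 of 37 called higher and 15 lower (median -0.07): the antagonist gene DKK1 had 106 and 104 FPKM with cisplatin and 40.2 and 36.7 FPKM with vehicle (1.43 ± 0.057), MYC and CCND1 changed by 1.23 and 1.16, and MMP7, the receptor gene FZD2 and SFRP1 fell by 1.38, 1.13 and 0.78. Of 30 genes that add or remove palmitate, 6 were called higher and 6 lower, with ZDHHC18 at 0.65 and ZDHHC2 at -0.46.

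Other signalling lists were likewise divided. YAP and TEAD pathway genes gave 17 calls higher and 7 lower of 34, and 13 and 10 with median-of-ratios scaling; beside ANKRD1 the largest rises were F3, the tissue factor gene, at 0.89 and TGFB2 at 0.88, and TEAD2 fell by 0.66. TGF-beta ligands, receptors and SMADs gave 8 higher and 9 lower of 28, with INHBA, an activin subunit gene, at 1.56, SMAD6 at -1.50 and LTBP1 at -1.74. RNA polymerase II and its elongation factors gave 26 higher and 7 lower of 46, and 19 and 11 with median-of-ratios scaling. CCNT1, the cyclin of the elongation factor P-TEFb, changed by 0.99, and HEXIM1, which holds that factor inactive, had 32.7 and 33.8 FPKM with cisplatin and 51.6 and 54.5 FPKM with vehicle (-0.66 ± 0.047). Splicing factors of the SR and hnRNP classes and their kinases gave 15 higher and 7 lower of 35, with SRSF7 at 0.97; their median was 0.04 as deposited and -0.07 with median-of-ratios scaling.

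**Figure D3:**
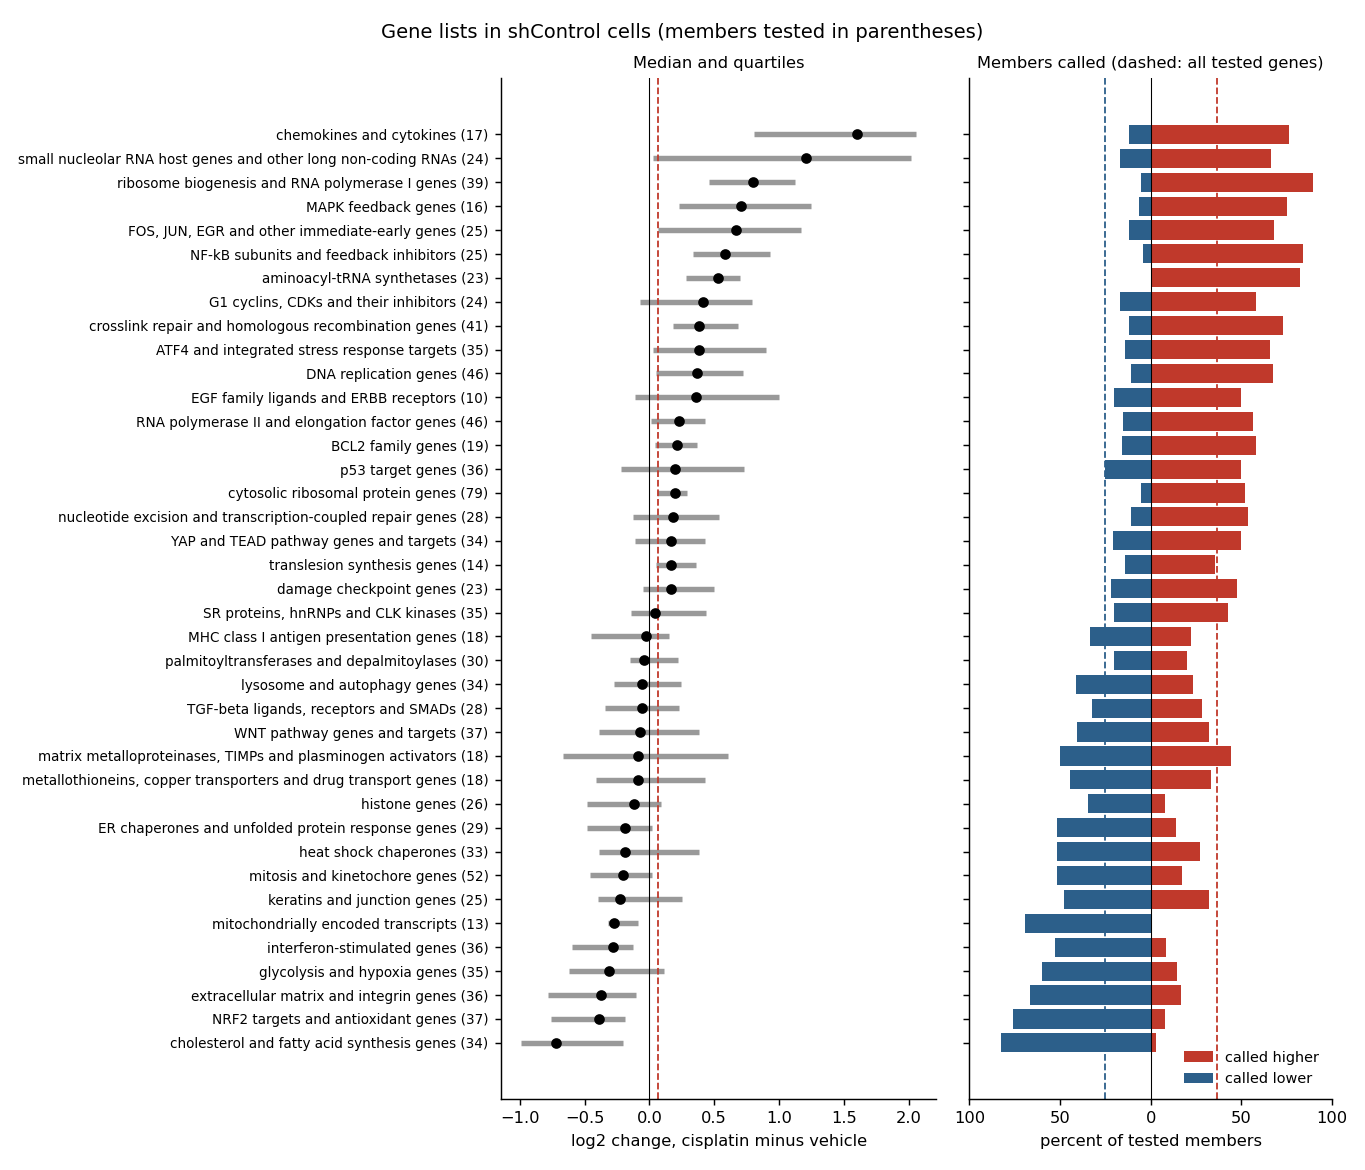
Left: median (point) and quartiles (bar) of the log2 change, cisplatin minus vehicle, for the tested members of each gene list, with the median of all tested genes as a dashed line. Right: percent of members called higher (to the right) and lower (to the left), with dashed lines at 36.8% and 25.4% for all tested genes; chemokines and cytokines lie at the top (median 1.60) and sterol and fatty acid synthesis at the bottom (-0.72).

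Genomic length went with the direction of change. Genes that span 20 to 50 kb had a median log2 change of 0.123 (3552 genes, 42.0% called higher and 22.3% lower). From 200 to 500 kb the median was -0.142 (763 genes, 20.7% higher and 41.4% lower), and at 500 kb or more it was -0.417 (129 genes, 15.5% higher and 59.7% lower). Genes under 5 kb had a median of 0.0423, so the largest positive values lay between 5 and 50 kb. Among protein-coding genes with a mean of at least 10 FPKM the same bins gave 0.145, -0.104 and -0.286, the last over 20 genes.

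The direction was not uniform at 500 kb or more. Of 117 tested protein-coding genes of that span, 76 (65.0%) were called lower and 17 (14.5%) higher, beside 22.5% lower and 42.9% higher at 20 to 50 kb. The called genes with a group mean of at least 5 FPKM and no overlap of the 4 libraries numbered 46, with 35 lower and 11 higher. The matching split of shorter genes was not counted. The examples here lie among the steepest of both directions. SORCS2, a sortilin-family receptor gene of 550 kb, had 0.253 and 0.311 FPKM with cisplatin and 6.48 and 6.62 FPKM with vehicle (-2.56 ± 0.086). GMDS, which encodes the first enzyme of GDP-fucose synthesis and was picked after its values were seen, spans 622 kb and had 7.73 and 8.00 FPKM with cisplatin and 21.04 and 21.6 FPKM with vehicle (-1.33 ± 0.069). DPYD, the gene of the enzyme that degrades fluorouracil, was picked in the same way; it spans 917 kb and had 11.8 and 11.1 FPKM with cisplatin and 26.4 and 26.7 FPKM with vehicle (-1.15 ± 0.060). Against the trend, CREB5, a transcription factor gene of 527 kb, had 8.47 and 6.69 FPKM with cisplatin and 1.82 and 1.63 FPKM with vehicle, a log2 change of 1.65. PALM2AKAP2 changed by 1.22 and RUNX1 by 0.88; these rises were picked after their values were seen. Transcript length and exon number, taken from GENCODE 29, moved the median less: it was 0.112 for longest transcripts of 2 to 3 kb and 0.00223 at 8 kb or more, and 0.115 for genes of 6 to 10 exons, 0.0142 for 21 or more and -0.0526 for the 194 protein-coding genes with a single exon. Span, exon number and expression level are themselves related, and their separate parts were not tested.

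**Figure D4:**
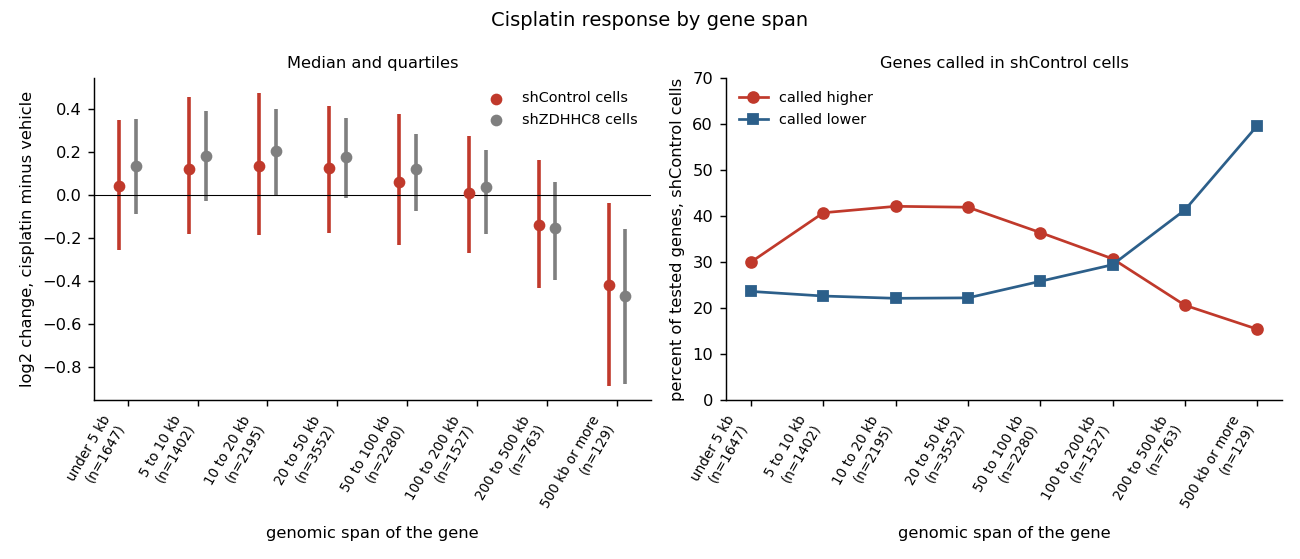
Left: median (point) and quartiles (bar) of the log2 change, cisplatin minus vehicle, by genomic span of the gene, in shControl and shZDHHC8 cells. Right: percent of tested genes in each span class called higher or lower in shControl cells; at 500 kb or more 15.5% were higher and 59.7% lower.

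Zinc finger genes, which cluster on chromosome 19 and mostly encode transcriptional repressors, were called higher in most cases; this group was picked after the values were seen. Of 246 tested genes named ZNF on chromosome 19, 162 (65.9%) were called higher and 20 lower, with a median of 0.40, or 0.32 with median-of-ratios scaling. Those on other chromosomes gave 127 higher and 31 lower of 234 (median 0.30). The rise was also seen in shZDHHC8 cells, where 172 of the chromosome 19 genes were called higher and 4 lower (median 0.40). For those elsewhere it was 122 and 10 (median 0.27), beside 36.9% higher over all tested genes in shZDHHC8 cells. ZNF566, the member that rose furthest, had 18.6 and 17.8 FPKM with cisplatin and 5.78 and 5.42 FPKM with vehicle (1.54 on the log2 scale, adjusted p = 2.33e-06). These genes are paralogs with similar coding repeats, so part of their reads may be shared.

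The response of shControl cells was then set against that of shZDHHC8 cells, which use separate control libraries and in which 6817 genes (50.5%) were called. The interaction term of the same fit (shControl response minus shZDHHC8 response) was called for 4104 genes (30.4%), positive in 1806 (13.4%) and negative in 2298 (17.0%). Which side was larger depended on scaling, since median-of-ratios scaling gave 2216 positive and 1965 negative interactions. Of the 30 lead genes, 28 responded more strongly in shControl cells by that test, 13 of the rises and 15 of the falls. VAV3 showed the widest gap: its log2 change was -3.13 in shControl cells and -0.24 in shZDHHC8 cells, an interaction of -2.90 (adjusted p = 3.30e-05). Its level with vehicle was already 1.01 and 0.966 FPKM in shZDHHC8 cells, against 9.97 and 9.25 FPKM in shControl cells, which bounds how far it could fall there. SAMD11 and IDO1 likewise averaged 1.54 and 1.44 FPKM with vehicle in shZDHHC8 cells, against 14.1 and 19.4 FPKM in shControl cells. CCL20 changed by 3.26 in shControl cells and 1.00 in shZDHHC8 cells, an interaction of 2.26 (adjusted p = 9.62e-05), and TRIB3 by 2.04 and 0.31. TRIB3 with vehicle already averaged 56.2 FPKM in shZDHHC8 cells, against 24.8 FPKM in shControl cells. In shZDHHC8 cells CCL20 rose from a mean of 0.412 to 1.83 FPKM, a range where changes on this scale come out too small. The part of the starting level in these gaps was not tested. ATF3 and TNFAIP3 did not pass the test of the difference, with interactions of 0.07 (adjusted p = 0.485) and 0.20 (adjusted p = 0.117). Because the lead genes were picked for the size of their change in shControl cells, a smaller change elsewhere is partly a result of that choice.

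**Figure D5:**
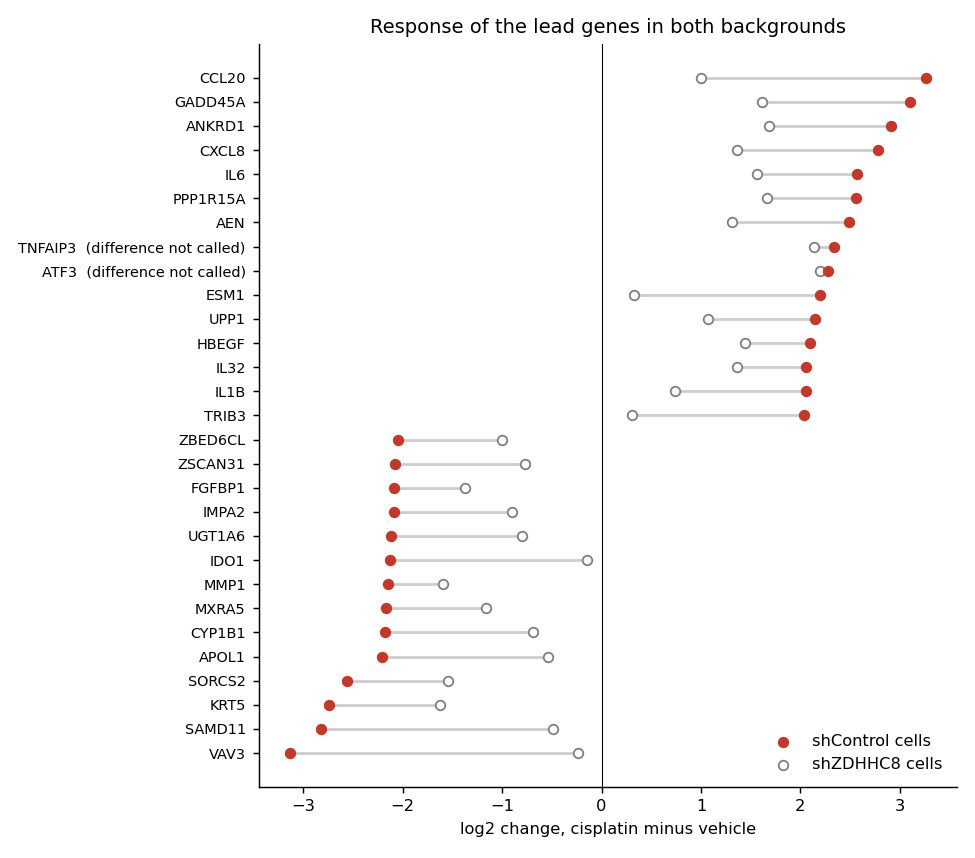
Log2 change, cisplatin minus vehicle, of 29 of the 30 lead genes in shControl cells (filled points) and shZDHHC8 cells (open points), ordered from the largest rise at the top to the largest fall at the bottom. For ATF3 and TNFAIP3 the points nearly meet and the difference was not called.

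The lists differed between backgrounds in their counts. In sterol and fatty acid synthesis 28 of 34 genes had a negative interaction, the median change being -0.72 in shControl cells and -0.07 in shZDHHC8 cells. Interferon-stimulated genes gave 24 negative interactions of 36, with a median change of -0.28 in shControl cells and 0.17 in shZDHHC8 cells. For mitochondrially encoded transcripts it was 12 of 13, with -0.27 in shControl cells and 0.14 in shZDHHC8 cells. Positive interactions were called for 23 of 35 stress response targets, whose median was 0.38 in shControl cells and -0.04 in shZDHHC8 cells. They were called for 47 of 79 ribosomal protein genes (0.20 in shControl and -0.14 in shZDHHC8 cells), 26 of 39 ribosome biogenesis genes (0.80 and 0.36 in those cells) and 12 of 17 chemokines and cytokines (1.60 and 0.50). Crosslink repair genes gave 7 positive and 3 negative interactions of 41, or 12 and 3 with median-of-ratios scaling, with medians of 0.38 in shControl cells and 0.23 in shZDHHC8 cells. The fall of long genes was seen in both backgrounds, with a median at 500 kb or more of -0.417 in shControl cells and -0.471 in shZDHHC8 cells.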

How the data were processed

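The authors deposited 1 table of values per gene and library, normalized on hg38 per the labels, whose unit is not named and which is treated here as FPKM. Which aligner, quantifier and annotation were used is not given in the sources used here. Values were transformed to log2(FPKM + 1), and genes at 1 FPKM or more in at least 2 of 8 libraries were fitted with limma 3.58.1 (R 4.3.3): a mean for each of the 4 groups over all 8 libraries, with eBayes and an intensity trend, and Benjamini-Hochberg adjustment per contrast. The labels call the 2 libraries of a group biological replicates without naming separate cultures, so p-values measure only the spread between them, which may be technical. On simulated data for this contrast, with 200 of 13495 genes changed, 92% were recovered at a log2 change of 1 and 59% at 0.5, and 2.58% of calls were false. The simulation changed only the shControl cisplatin group, and far fewer genes than the 62.2% called in the data. Its rates therefore need not hold for the real contrast.

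The genes, lists and alternatives were chosen with earlier results of these data known. The 39 lists came from general knowledge, and 29 genes belong to more than 1. Lead genes are the 15 largest rises and falls among called protein-coding genes with a group mean of at least 5 FPKM and no overlap of the 4 libraries; each list names up to 3 called members each way. ZDHHC8 and CTNNB1 are named as the genes of the study. Some genes that the rule chose are not reported here. Of the tested genes, 13434 matched GENCODE 29 by identifier. Promoters came from RefSeq (GRCh38.p14), for 9962 tested genes. Tables and plots used Python 3.11.15, pandas 2.3.3 and matplotlib 3.10.9.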

Additional observations from a re-analysis of the deposited data

Results flagged for a closer look

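The responses of 29 of the 32 lead genes and study genes differed between shControl and shZDHHC8 cells by the interaction test of limma at an adjusted p below 0.05 (shControl response minus shZDHHC8 response, log2 scale). Among the rises the difference was 2.26 for CCL20, 1.87 for ESM1, 1.74 for TRIB3, 1.49 for GADD45A, 1.42 for CXCL8, 1.32 for IL1B, 1.23 for ANKRD1, 1.18 for AEN, 1.08 for UPP1, 1.00 for IL6, 0.90 for PPP1R15A, 0.70 for IL32 and 0.66 for HBEGF. For the falls reported here it was -2.90 for VAV3, -2.34 for SAMD11, -1.99 for IDO1, -1.67 for APOL1, -1.50 for CYP1B1, -1.32 for UGT1A6, -1.31 for ZSCAN31, -1.20 for IMPA2, -1.12 for KRT5, -1.05 for ZBED6CL, -1.02 for SORCS2, -1.01 for MXRA5, -0.71 for FGFBP1 and -0.56 for MMP1. VAV3, SAMD11 and IDO1 averaged only 0.989, 1.54 and 1.44 FPKM with vehicle in shZDHHC8 cells, which bounds their possible fall there. Some rises also started from unlike levels. With vehicle, UPP1, IL1B and TRIB3 averaged 57.45, 5.92 and 56.2 FPKM in shZDHHC8 cells, against 14.4, 0.894 and 24.8 FPKM in shControl cells. For IL6 it was the reverse, at 1.88 FPKM in shZDHHC8 and 15.65 FPKM in shControl cells. CTNNB1 differed by -0.34, its log2 change being -0.48 in shControl cells and -0.14 in shZDHHC8 cells. Of the other 196 list members chosen by the naming rule, 140 differed between the backgrounds. Over all tested genes the share was 30.4%. Apart from the study genes, the rule chose genes for the size of their change in shControl cells, so a high share is partly a result of that choice.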

How the results depend on the processing

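With a log2 change of at least 1 as a second threshold, 465 genes were called higher and 270 lower, and 97 and 168 genes had a positive and a negative interaction. Leaving out each of the 8 libraries in turn gave 4264 to 5019 genes higher and 2869 to 3462 lower, and 1309 to 1550 positive and 1577 to 2004 negative interactions. The replicate number did not pair the libraries, since the deviations of same-numbered libraries correlated at -0.0515 to 0.0198; with a replicate block 4888 genes were higher and 3361 lower, and 1660 and 2098 interactions were called. Leaving weakly expressed genes in, a pseudocount of 0.1, a common column total, no intensity trend, median-of-ratios scaling and a fit of the 4 shControl libraries alone kept each count within 1.5 times; the last gives no interaction. The median of genes of 500 kb or more lay below that of genes of 20 to 50 kb by a difference of -0.540, which was -0.727 with a pseudocount of 0.1, -0.430 for protein-coding genes with a mean of at least 10 FPKM and -0.644 in shZDHHC8 cells, an alternative added after seeing the data; the cause was not tested. For the 228 genes chosen by the naming rule, 3391 of 3420 pairs of gene and alternative kept the call, 29 lost it and 0 reversed; the 11 genes concerned included NPM1, MACROH2A1, CETN2, ELL3, SRSF5, ZDHHC23, ZDHHC8, FANCF, NFKBIA and STK3. Median-of-ratios scaling moved 36 of 39 list medians by more than their spread over pairs of libraries and turned the sign of 1, that of the splicing factors. With snoRNA genes of GENCODE 29 or RefSeq, also added after seeing the data, the median of long non-coding host genes was 0.49 in place of 0.73.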
